A study of Homo sapiens with 47 samples.

Results

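The transient genes of 36 h and P1 are 122 of the 19737 protein-coding genes measured in cultures of WA09 (H9) cells, an established human embryonic stem cell line, on their way through a neuromesodermal progenitor (NMP)-like state to pre-neural progenitors (PNPs) and neural crest (NC). They were chosen by their level. Each protein-coding gene was scored by log2(mean TPM of 36 h and P1 + 1) minus the larger of the same value at t0 and over P4 to P8, where TPM is the RNA level of a gene corrected for transcript length and library total. The 150 genes with the highest score were taken, and 28 of them that belong to families and factors such as the HOX, WNT, FGF and TBX genes were left out by symbol. The lowest score was 1.28, the median 1.77 and the highest 6.25. The last genes inside were TNS4, AP3B2 and TNFRSF9, at scores of 1.285, 1.284 and 1.282, and the first outside were SGK1, SETD4 and SDR16C5, at 1.282, 1.278 and 1.276. The libraries of t0, 36 h, P1 and P4 to P8 chose the genes, so their rise and fall between these libraries is a description and was not tested. P2, P3, P9, P10 and the fractions of P5 and P8 played no part in the choice. They lie beside or within the passages that did, so the levels there are not independent of it.

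Whole cultures were sequenced at t0 (undifferentiated WA09 cells), at 36 h (NMP-like cells) and at each passage from P1 to P10 (PNP/NC cells), in 3 independent differentiations numbered r1 to r3, with P9 in r1 and r2 alone, giving 35 libraries. All cells after t0 were kept in N2B27 without vitamin A, with the WNT agonist CHIR-99021, rhFGF2, the retinoic acid receptor inverse agonist AGN193109 and the ROCK inhibitor Y-27632, and were re-plated at 1:6 after 36 h. At P5 and P8, cells were detached selectively with TrypLE into fractions enriched for epithelial (EPI) and mesenchymal (MES) cells, 12 libraries in all. Enrichment is not a sort, every library comes from 1 cell line, and in bulk RNA fewer cells of a type and less RNA per cell cannot be told apart.

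Between 13029491 and 64082859 expected counts stood behind a library, with at least 21802304 in each library of 36 h and P1. The labelled stages were checked against marker genes. POU5F1, a pluripotency factor, was at 1569 to 1749 TPM at t0, and MIXL1 and TBXT, genes of the primitive streak, were at no more than 1.40 and 0.32 TPM at t0 and at 234 to 1319 and 62.3 to 493 TPM at 36 h. Differentiation r1 already differed at 36 h, with TBXT at 62.3 TPM against 477 and 493, MIXL1 at 234 TPM against 1319 and 821, and SOX2 at 217 TPM against 21.3 and 4.14. At P1 it stood further apart. In P1.r1, POU5F1 was at 863 TPM, against 18.7 and 5.07 in P1.r2 and P1.r3, and NANOG at 26.4 TPM, against 0.07 and 0. The summed TPM of a list of 12 pluripotency genes was 675 to 3253 at P1, with SOX2 at 80.7, 2.77 and 3.03 TPM in r1, r2 and r3. P10.r1 also differed from the other P10 libraries, with SOX2 at 214 TPM against 0.50 and 0.71 and CDX2 at 193 TPM against 2.76 and 1.24. Calls between whole cultures are given with and without r1.

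NMPs sit at the caudal end of the embryo, where WNT and FGF signals keep a pool of cells that can enter the spinal cord or the paraxial mesoderm, the tissue that segments into somites. Nodal, a TGF-beta family ligand, acts earlier in the primitive streak, together with factors such as GSC, GATA4 and GATA6 that mark its anterior, mesendodermal descendants. Cells that leave for the paraxial mesoderm switch on forkhead factors such as FOXC1 and FOXC2, the Notch modifier LFNG and the somite border gene RIPPLY2, and ALDH1A2, the enzyme that makes retinoic acid there. Among the 122 genes, the lists of pathway and cell type genes held 5 of 15 genes of the primitive streak and mesendoderm (among them GSC, GATA6, APLNR and SNAI1), 4 of 15 of the paraxial mesoderm (RIPPLY2, ALDH1A2, FOXC1, FOXC2), 3 of 23 of WNT feedback (DKK1, DKK4, RSPO3), 2 of 16 of the caudal epiblast (NKX1-2, FOXB1), 2 of 19 of the Notch pathway and clock (LFNG, RIPPLY2), 2 of 15 of the retinoid pathway (among them ALDH1A2) and 1 of 18 of the Nodal and Activin pathway (NODAL). GATA4 and GATA6 were also in the lateral mesoderm and definitive endoderm lists, CXCR4 was in the latter, and SNAI1 was in that of EMT and migration. The lists of BMP response, FGF/ERK feedback, amnion and trophoblast, node and notochord, motile cilia, neural crest, neural progenitor, pluripotency and immediate early genes held 0 of them. The 122 genes are 0.618% of the protein-coding genes. The symbols left out of the rule set part of these counts, since they took 8 genes from the caudal epiblast list, 6 from the primitive streak, 4 from Notch, 3 from the paraxial mesoderm and 1 each from WNT feedback, Nodal and node and notochord.

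Since the cultures were under a WNT agonist, the promoters were read for the core letters bound by TCF/LEF, the factors that carry the WNT signal to DNA, and by 3 other groups of factors of these stages. RefSeq promoter windows on GRCh38.p14, from 250 bases before to 50 after the start of transcription, were matched to 85 of the 122 genes and searched on both strands. CTTTGAT, for TCF/LEF, was in 3 of the 85 windows (3.53%) and in 308 of 15843 windows of all protein-coding genes (1.94%). GGTGTGA, for T-box factors such as Brachyury, was in 5 of 85 (5.88%) against 3.25% of all windows. AATNCACA, for FOXH1, the DNA-binding partner of Nodal-activated SMADs, was in 2 of 85 (2.35%) against 2.22%, and TTTATGG, for CDX and posterior HOX factors, in 1 of 85 (1.18%) against 2.05%. Each printed window holds 1 of these motifs. GGTGTGA on one strand can overlap AATNCACA on the other, and the shares are a description of the windows. The 250 bases before the start are shown for the 3 genes with a TCF/LEF motif and for FOXB1, the caudal epiblast gene with a T-box motif, 5′ to 3′ on the strand of the gene, with the motif or its reverse complement in capitals.
PRL, chr6:22297037-22297286, minus strand: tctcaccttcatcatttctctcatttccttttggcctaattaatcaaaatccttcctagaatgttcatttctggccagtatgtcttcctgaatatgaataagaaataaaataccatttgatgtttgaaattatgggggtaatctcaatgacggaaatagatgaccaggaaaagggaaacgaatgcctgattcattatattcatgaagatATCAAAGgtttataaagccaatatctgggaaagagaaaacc
PHOSPHO1, chr17:49230788-49231037, minus strand: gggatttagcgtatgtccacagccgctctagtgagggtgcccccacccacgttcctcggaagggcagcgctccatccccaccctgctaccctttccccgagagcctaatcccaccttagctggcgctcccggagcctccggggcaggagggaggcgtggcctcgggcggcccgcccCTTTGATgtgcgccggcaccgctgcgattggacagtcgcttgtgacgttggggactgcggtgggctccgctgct
IRX1, chr5:3595582-3595831, plus strand: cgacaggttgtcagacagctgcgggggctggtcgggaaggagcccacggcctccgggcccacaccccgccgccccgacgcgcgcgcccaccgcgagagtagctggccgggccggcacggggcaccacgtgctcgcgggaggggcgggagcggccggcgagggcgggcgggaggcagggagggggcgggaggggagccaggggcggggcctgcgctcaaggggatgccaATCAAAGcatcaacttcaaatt
FOXB1, chr15:60004061-60004310, plus strand: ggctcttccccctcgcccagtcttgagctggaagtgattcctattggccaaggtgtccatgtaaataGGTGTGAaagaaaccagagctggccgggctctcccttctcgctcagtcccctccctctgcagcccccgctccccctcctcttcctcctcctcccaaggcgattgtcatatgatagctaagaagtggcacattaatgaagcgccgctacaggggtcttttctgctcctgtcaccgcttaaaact

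The 122 genes followed different courses within the window that chose them. By their mean TPM, 46 had their highest level at 36 h, 56 at P1, 11 at P2, 3 at P3, 1 at P9 and 5 at P10. Their mean TPM over 36 h and P1 was between 1.60 and 1543 (median 14.8), and 51 were under 10 TPM and 22 at 100 TPM or more. At t0, 54 had a mean under 1 TPM, and over P4 to P8, 57 did. In r2 and r3, 45 were higher at 36 h than at P1 in both differentiations, 63 were higher at P1 in both, and 14 went opposite ways.

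**Figure D1:**
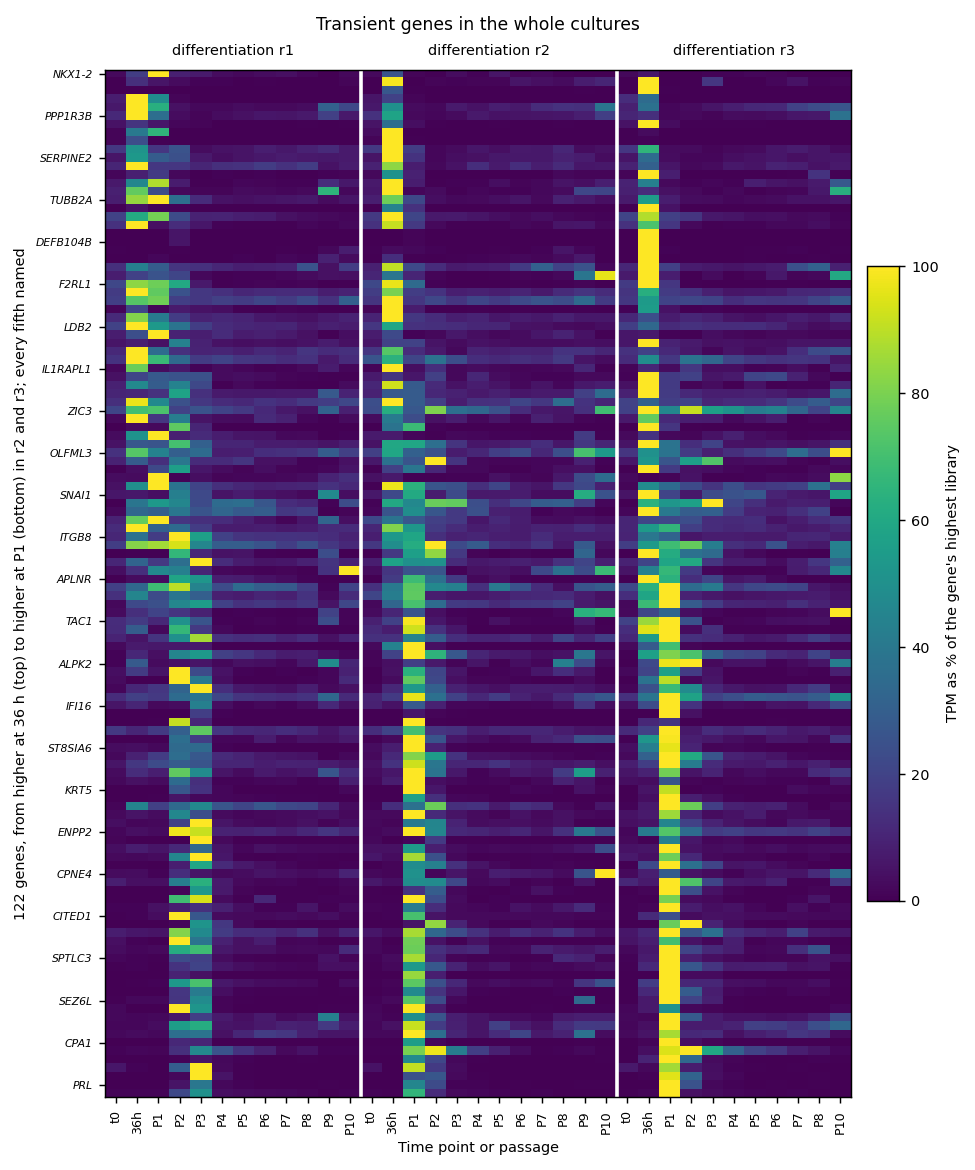
TPM of the 122 genes in the 35 whole-culture libraries, each row scaled to the highest of its libraries (color, 0 to 100%), with the columns ordered by differentiation and time point and the rows from genes higher at 36 h to genes higher at P1 in r2 and r3. In r2 and r3 the yellow cells lie at 36 h for the upper rows and at P1 for the lower rows, and in r1 the lower rows are brightest at P2 and P3.

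The members ran a different course in r1 than in r2 and r3. In r1, 28 genes had their highest level at 36 h, 17 at P1, 36 at P2 and 34 at P3. In r2 the counts were 40, 58, 13 and 0, and in r3 they were 48, 58, 7 and 2. Of the 63 genes that were higher at P1 than at 36 h in both r2 and r3, 57 peaked at P2 or P3 in r1, and 3 were higher by more than 1 on the log2(TPM + 1) scale from 36 h to P1 in r1. Of the 45 genes that were higher at 36 h in r2 and r3, 39 peaked at 36 h or P1 in r1. P1.r1 was the lowest of the P1 libraries for 79 of the 122 genes, while P2.r1 was the highest of the P2 libraries for 81 and P3.r1 the highest at P3 for 98. Such counts were not made over all genes. Differentiation r1 also stood apart over protein-coding genes at large, by smaller differences that are given below.

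**Figure D2:**
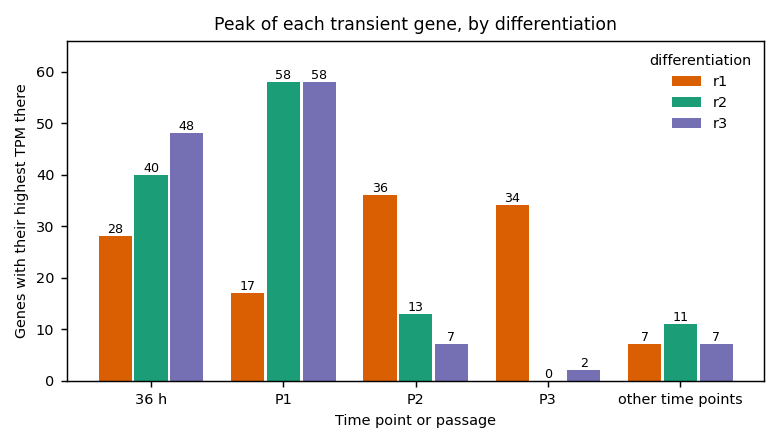
Number of the 122 genes (vertical axis) whose highest TPM lay at 36 h, P1, P2, P3 or another time point (horizontal axis), counted within each differentiation (colors). P3 holds 34 genes in r1 against 0 in r2 and 2 in r3, and P1 holds 17 in r1 against 58 in both others.

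The size of this gap was read from the differences between differentiations in log2(TPM + 1). At P1 the median absolute difference over the 122 genes was 2.10 between r1 and r2 and 2.53 between r1 and r3, against 0.40 between r2 and r3. Over 12951 protein-coding genes with a mean of at least 1 TPM at 36 h and P1, the same medians were 0.33, 0.45 and 0.22. Libraries of P1 entered the rule, which selects genes with large levels in a few libraries. At P3, which did not enter it, the medians over the 122 genes were 1.05 and 1.10 between r1 and the others and 0.21 between r2 and r3, against 0.20, 0.23 and 0.14 over the 12951 genes. By the same measure, P1.r1 lay farther from P1.r2 (2.10) and P1.r3 (2.53) than from each r2 and r3 library of t0, 36 h, P2, P3 and P4, whose distances were between 0.51 (36h.r2) and 1.55 (P2.r3), with 36h.r3 at 1.15. The rule favors genes that are high in P1.r2 and P1.r3, which bears on these distances. P2.r1 lay nearer to P1.r2 (0.65) than to P2.r2 (0.95), with P1.r3 at 1.05 and P2.r3 at 1.25, and P3.r1 lay nearer to P2.r2 (0.69) and P1.r3 (0.69) than to P3.r2 (1.05) and P3.r3 (1.10). The residual POU5F1 of P1.r1 moved with this pattern, and its part in it was not tested.

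NODAL, GATA6, GATA4, GSC and DKK4 had their highest mean at 36 h, with large differences between differentiations. NODAL was at 0.85, 0.94 and 0.44 TPM at t0 in r1, r2 and r3, at 15.2, 63.3 and 0.61 TPM at 36 h, and at 0.26 TPM or less in every library of P1. Its 36 h libraries in r1 and r2 were above all others, and 36h.r3 was within the range of t0. GATA6, a factor of endoderm and heart, showed another order at 36 h, with 0.03, 8.98 and 33.1 TPM, and was at 0.22 TPM or less at P1. GATA4, its paralogue, was at 0.65, 6.04 and 13.6 TPM and GSC, a homeobox gene of the organizer, at 1.05, 5.05 and 2.80 TPM at 36 h. DKK4, a secreted WNT inhibitor, was at 2.57, 19.0 and 19.2 TPM. For GATA4, GATA6, GSC and DKK4, r1 was the lowest at 36 h and did not exceed 0.56 TPM at P2 or P3. SOX17, a defining gene of definitive endoderm, was at 0 TPM in every library of 36 h and P1. The summed TPM of the 14 genes of that list was 25.1 to 160 at 36 h and 13 to 581 at P1, with CXCR4 at 4.62 to 578 TPM at P1.

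A second set of early genes stayed on in r1. NKX1-2, a homeobox gene of the caudal epiblast, was at 119, 168 and 39.1 TPM at 36 h and at 652, 9.55 and 0.78 TPM at P1, so that P1.r1 alone held its peak. GLIPR1L1 was at 17.6, 43.5 and 1.26 TPM at 36 h, at 28.4 TPM in P1.r1 and at 0.16 and 0.04 TPM in the other P1 libraries. NR5A2, a nuclear receptor gene active in pluripotent cells, was at 24.6 TPM in P1.r1 against 0.27 and 0.26 TPM in the others. The tubulin genes TUBB2A and TUBB2B, 66.7 kb apart on chromosome 6, had the highest mean TPM of the members, at 954 to 1448 and 1641 to 2622 TPM at 36 h, and at P1 they were at 1721 and 1979 TPM in r1 against 138 to 375 and 453 to 476 TPM in r2 and r3. They are near-identical copies, and the division of reads between them is an estimate. PCSK1, a prohormone convertase, was higher in r2 and r3 at 36 h (5.05, 29.2 and 57.3 TPM) and at 4.77 to 9.77 TPM in all 3 libraries of P1.

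The WNT modulators were already high at 36 h in r2 and r3. RSPO3, a secreted enhancer of WNT signaling with the highest score of all, was at 8.19, 101 and 266 TPM at 36 h, at 6.71, 182 and 40.8 TPM at P1, and at 199.7, 2.80 and 1.5 TPM at P2. Its level in r1 was highest 2 time points later than in r3. DKK1, a secreted WNT inhibitor, was at 10.8, 242 and 1444 TPM at 36 h, at 8.09, 814 and 886 TPM at P1 and at 958, 1203 and 538 TPM at P2. DACT1, an intracellular regulator of the pathway, was at 41.0, 72.5 and 206 TPM at 36 h and at 14.6, 364 and 294 TPM at P1. At 36 h these 3 genes were ordered r1, r2, r3 from low to high, and at P1 r1 was the lowest of the libraries by at least 6-fold for each. DKK4 went the other way at P1, with 1.06 TPM in r1 against 0.06 and 0.07 TPM.

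Among the members of the paraxial mesoderm list, ALDH1A2 was at 0.89, 167 and 347 TPM at P1, FOXC1 was at 0.51, 76.6 and 159.7 TPM, and FOXC2 at 0.03, 32.9 and 127 TPM. In r1 these genes were still low at P1. FOXC2 reached 133 TPM in P3.r1, where r2 and r3 were at 3.14 and 5.43 TPM, and FOXC1 reached 66.4 TPM there against 9.56 and 12.6 TPM. RIPPLY2 was at 0, 1.14 and 31.8 TPM at P1 and at 72.2, 0.32 and 1.37 TPM at P3, and LFNG, a glycosyltransferase that tunes Notch receptors, at 22.5, 67.3 and 151 TPM at P1 and 131, 20 and 18.8 TPM at P3. ALDH1A2 also had its highest level in r1 at P3, at 17.9 TPM, and for both FOXC1 and ALDH1A2 this was below each P1 level of r2 and r3. FOXL1, another forkhead gene 6.6 kb from FOXC2 on chromosome 16, was at 0.04, 3.26 and 22.4 TPM at P1 and 12.1, 0.51 and 1.08 TPM at P3, the same order of libraries as FOXC2 in both passages.

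**Figure D3:**
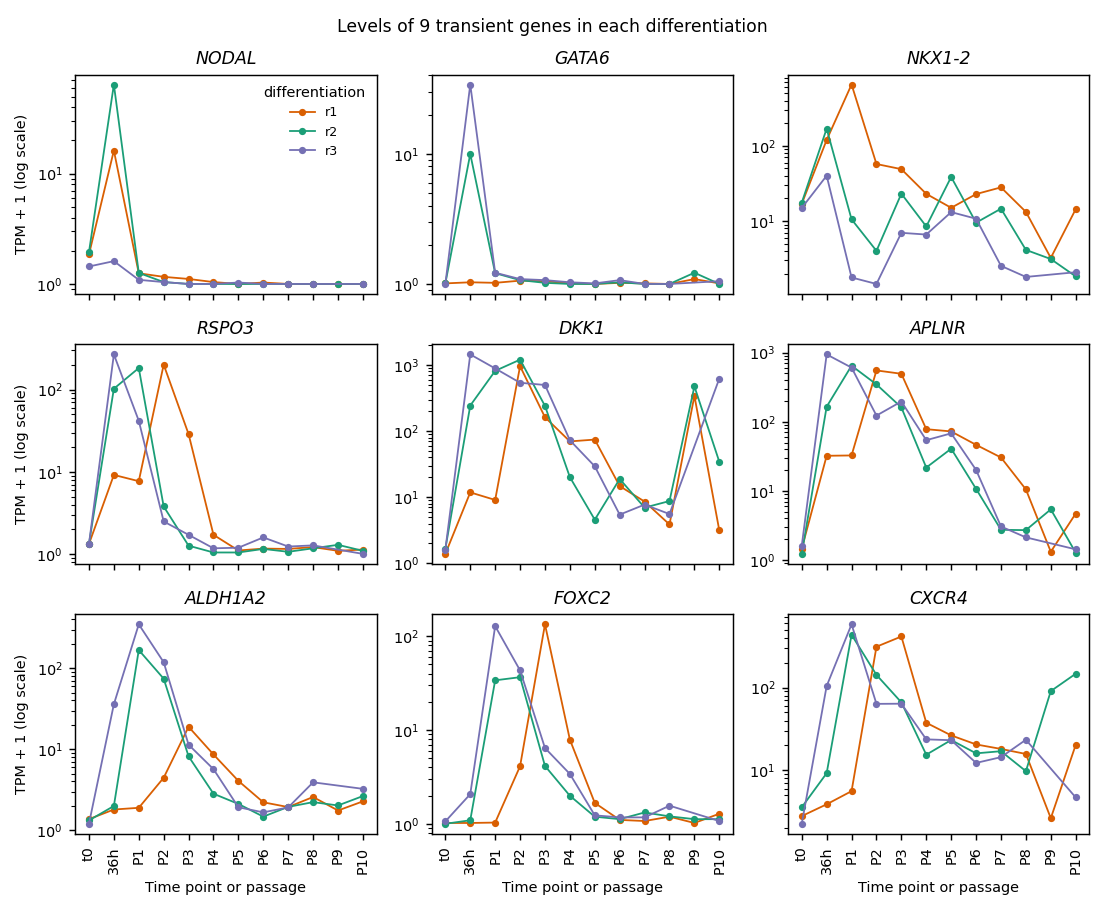
TPM + 1 on a log scale (vertical axis) of 9 of the genes at each time point (horizontal axis), 1 line for each differentiation; P9 has no r3 point and the line joins P8 to P10. RSPO3, APLNR, FOXC2 and CXCR4 are low in r1 until P1 and high at P2 or P3, NKX1-2 peaks in P1.r1 at 652 TPM, and DKK1 is high again at P9.

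APLNR, the apelin receptor, was at 31.2, 164 and 938 TPM at 36 h, 31.5, 644 and 604 TPM at P1, and 550.3, 345 and 122 TPM at P2. CXCR4, the receptor of the chemokine CXCL12, was at 4.62, 432 and 578 TPM at P1 and at 412, 65.2 and 62.8 TPM at P3. S1PR3, a sphingosine-1-phosphate receptor, was at 11.2, 316 and 345 TPM at P1 and at 214, 29.8 and 26.0 TPM at P3. At P1, r1 was below both others for APLNR, CXCR4 and S1PR3, and at P3 it was above both. Other receptor members had other orders, and F2RL1 was at 49.5, 21.9 and 9.93 TPM at P1 with r1 the highest. SNAI1, a driver of epithelial-to-mesenchymal transition, was at 7.96, 27.7 and 126 TPM at 36 h and at 27.5, 28.1 and 28.7 TPM at P3. HAS2, which makes hyaluronan, was at 1.82, 288 and 531 TPM at P1. PRTG, a cell surface protein of early embryos, was at 88.5, 405 and 498 TPM at P1 with all 3 libraries above t0 (11.5 to 12.5 TPM).

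Some of the genes with the highest scores are in none of the lists. NTS, the precursor of neurotensin, was at 41.2, 642 and 448 TPM at P1, PDYN, the precursor of dynorphins, at 1.33, 107 and 163 TPM, and PRL, prolactin, at 0.13, 37.5 and 81.8 TPM. PRL was at 0 TPM in every t0 library, in 36h.r1 and in 36h.r2. In P3.r1, PDYN was at 82.4 TPM and PRL at 32.3 TPM, while r2 and r3 were at 3.82 and 4.63 TPM and at 0.90 and 1.88 TPM. CPA1, a carboxypeptidase, was at 0.08, 20.2 and 36.3 TPM at P1, SEZ6L at 2.07, 69.5 and 93.7 TPM, VWA2 at 0.23, 64.1 and 32.8 TPM and SPTLC3, a serine palmitoyltransferase subunit, at 0.27, 33.4 and 38.5 TPM. For each of these 7 genes, P1.r1 was the lowest of the P1 libraries.

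A single library carried many of the scores. For 52 of the 122 genes, 1 library held over 50% of the summed TPM of the 6 libraries of 36 h and P1, and it was P1.r3 for 25, 36h.r3 for 11, P1.r2 for 9, P1.r1 for 4 and 36h.r2 for 3. DEFB104A and DEFB104B, near-identical copies of a defensin gene, were each listed at 24.1 TPM in 36h.r3 and at 0.34 TPM or less in the other libraries of 36 h and P1, and reads cannot be assigned to either copy. Chosen again without r1, the rule gave 119 genes of which 101 were among the 122, and without r2 and without r3 it gave 120 with 102 shared and 123 with 93 shared. Some members also lay side by side on chromosomes, among them VWA2, AFAP1L2 and ABLIM1 within one stretch of chromosome 10, LRRC55 and APLNR, and KRT5 and KRT71.

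P2 and P3 did not enter the rule, but the levels of 36 h and P1 did, so a part of any percentage left at P2 and P3 is fixed by the choice of the genes. The median gene had 52.5% of its mean level of 36 h and P1 left at P2 and 30.2% at P3. By differentiation, the median percentage of the level of 36 h and P1 was 191.6, 33.8 and 18.7% at P2, and 149.8, 12.3 and 13.4% at P3, in r1, r2 and r3. Without r1 the medians over genes were 26.5% at P2 and 12.0% at P3, and without r3 they were 88.5% and 48.1%. Genes that were higher at 36 h in all 3 differentiations (30) had a median of 23.4% left at P2 and 11.4% at P3, and those higher at P1 in all 3 (26) had 82.6% and 60.2%.

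Between P2 and P3, 0 of the 120 members tested changed, against 0.0092% of all 21750 genes (quasi-likelihood F-test of edgeR, p-values adjusted by Benjamini-Hochberg, called where the FDR was under 1%, the change 2-fold or more and the mean normalized count 100 or more). An unadjusted p under 0.05 was found for 15 members, and for 10.4% of all genes, and DESeq2 also called 0 (0.23% of all genes). The median log2 fold change of the members was -0.72, with 99 of 120 negative, against -0.03 over all genes. The rule asks for high levels at P1 and low ones over P4 to P8, so a fall between P2 and P3 is partly set by it. With P2 and P3 alone in the fit, 108 members passed the count filter, with 98 negative, 10 positive and a median of -0.88. Without r1, edgeR called 4 members lower at P3, against 0.107% of all genes, and the median was -1.30. These 4 were chosen here after their values were seen. Their log2 fold changes without r1 were -4.60 for NTS (adjusted p = 0.0066), -3.88 for PRL (adjusted p = 0.0050), -2.02 for DOK6, a docking protein of receptor tyrosine kinases (adjusted p = 0.0070), and -1.85 for FNDC5 (adjusted p = 0.0070). In r1 NTS was at 42.2 TPM at P2 and 44.7 TPM at P3 and PRL at 4.38 and 32.3 TPM, so that r1 did not share the fall.

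At P9 and P10 the median member stood below its level of P3, and a few were high again. Of 120 members tested, 27 were lower and 3 higher than at P3, against 2.1% lower, 4.97% higher and 7.06% called in all of the 21750 genes (same test). The rule asks for high levels at P1, before P3, and low ones over P4 to P8, before P9. An excess of lower calls over all genes is therefore partly set by the choice. An unadjusted p under 0.05 was found for 73 members and for 42.3% of all genes. The median log2 fold change was -1.37 over the members and 0.00 over all genes, and without r1 it was -0.34 over the members, with 68 negative and 54 positive. Of the 30 called, 24 had every library of P9 and P10 below every library of P3 and 2 had every one above. These were counted among genes already called for this difference, where little overlap is likely, and the same count was not made over all genes. For 22 of the 27 lower genes, r1 was the highest of the P3 libraries. With r1 left out of the fit, 18 were lower and 12 higher (3.22% and 5.5% of all genes), and 16 of the 27 lower and all 3 higher calls were shared with the fit of all libraries. With r2 left out 5 were lower and 0 higher (0.586% and 1.29% of all genes), and with r3 left out 16 were lower and 0 higher (0.748% and 1.41%), so that fewer calls were made over all genes too. None of the 12 genes named by rule here was called without r2 (adjusted p = 0.014 to 0.067) or when only the compared groups were fitted (adjusted p = 0.014 to 0.084). The main count filter used all 35 libraries, those of 36 h and P1 among them. The fit of the compared groups alone tested 111 members and called 0, and called 4 of 18973 genes.

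Genes of the paraxial mesoderm were among those that fell. FOXC1 went from 66.4, 9.56 and 12.6 TPM at P3 to 0.04 to 0.66 TPM at P9 and P10, a log2 fold change of -6.49 (SE 1.18, adjusted p = 0.00026). FOXC2 was at 0.02 to 0.28 TPM in the late libraries (log2 fold change -8.60, SE 1.64, adjusted p = 0.00039). FOXL1 was at 0 to 0.29 TPM there (-8.19, SE 2.02, adjusted p = 0.0036). Its log2 fold change was -10.3 without P10 of r1, where the late libraries were at 0 to 0.01 TPM. With late levels this near 0, the sizes of the FOXC2 and FOXL1 folds are uncertain. RIPPLY2 had 2110 expected counts in P3.r1, 8 and 39 in P3.r2 and P3.r3, and 1 count in the 5 late libraries together, so no fold is given (adjusted p = 0.0013). All 4 genes were lower in each differentiation. FOXC1 and FOXC2 were also called without r1, with log2 fold changes of -5.51 and -5.02, while the adjusted p was 0.058 for RIPPLY2 and 0.011 for FOXL1. Without r2 the adjusted p was 0.046 for FOXC1 and 0.035 for FOXC2. Without r3 FOXC1 and FOXC2 were still called, while RIPPLY2 and FOXL1 were not (adjusted p = 0.012 and 0.023). Over all genes, 2.1% were lower and 4.97% higher in the late cultures (3.22% and 5.5% without r1). Of the 15 genes of the paraxial mesoderm list, 7 were lower and 2 higher, with a median log2 fold change of -6.41. Of the 19 genes of the Notch and clock list 8 were lower and 1 higher, of the 16 of the caudal epiblast list 6 were lower and 1 higher, of the 15 of the primitive streak list 3 were lower, of the 13 of EMT and migration 6 were higher, of the 23 of WNT feedback 7 were higher and 0 lower, and of the 15 of the retinoid list 4 were higher and 1 lower. Without r1 the counts were 3 lower and 2 higher for the paraxial mesoderm (median -2.90), 3 lower and 1 higher for Notch, 8 lower and 1 higher for the caudal epiblast, 3 lower for the streak, 7 higher for EMT and migration, 9 higher for WNT feedback, and 6 higher and 1 lower for the retinoid list.

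**Figure D4:**
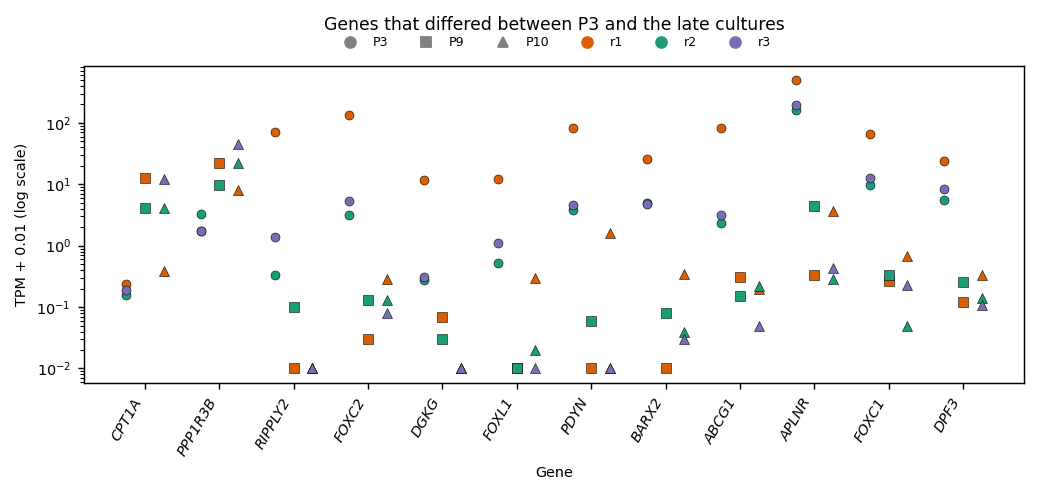
TPM on a log scale (vertical axis; a small constant is added so that 0 can be drawn at the bottom) of the 12 genes named for the comparison of P9 and P10 with P3 (horizontal axis), 1 point per library, with the shape giving the passage and the color the differentiation. CPT1A and PPP1R3B lie higher at P9 and P10 and the other 10 lower, and for the lower genes r1 is the highest point at P3.

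APLNR went from 492, 159.8 and 195 TPM at P3 to 0.28 to 4.41 TPM (log2 fold change -7.05, SE 1.25, adjusted p = 0.00020), with no overlap between the groups. PDYN was at 82.4, 3.82 and 4.63 TPM at P3 and at 0 to 1.59 TPM in the late libraries (-7.68, SE 1.31, adjusted p = 0.00013). Its late counts were 112 in P10.r1 and 0 to 3 in the others. The PDYN log2 fold change was -11.2 without P10 of r1 and -10.2 without r2. BARX2, a homeobox factor of muscle and epithelium, fell by 7.41 (SE 1.63, adjusted p = 0.0014), ABCG1, a sterol transporter, by 7.18 (SE 1.36, adjusted p = 0.00038) and DPF3, a chromatin remodeling subunit, by 6.46 (SE 1.22, adjusted p = 0.00037) on the log2 scale. BARX2 was at 0 to 0.34 TPM in the late libraries. The sizes of the PDYN and BARX2 folds rest on late values near 0 and are uncertain. DGKG, a diacylglycerol kinase, had 871, 14 and 31 counts at P3 and 0 to 3 in each late library (adjusted p = 0.00017). APLNR, PDYN and DPF3 were called without r1 too. Without r1 the log2 fold change was -6.79 for BARX2 and -4.29 for ABCG1 (adjusted p = 0.0018 and 0.0057). Their mean counts were then under 100, so that neither was called. For DGKG the adjusted p without r1 was 0.014. ABCG1 was at 82.8, 2.33 and 3.12 TPM at P3 in r1, r2 and r3. Without r3 the adjusted p was 0.013 for BARX2 and 0.011 for ABCG1. The other 17 lower genes had log2 fold changes from -5.99 (NTS, which was at 0.80 TPM in P3.r3 and 1.19 TPM in P10.r3 and was not called without r1) to -1.54 (FNDC5) and included MEIS1 and PRTG, at -5.55 and -5.39, both also called without r1. These 4 are named after their values were seen.

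The 3 higher genes were low at P3 in most libraries and had been present at 36 h. CPT1A, which admits fatty acids to mitochondria, was at 14.7, 19.3 and 2.48 TPM at 36 h, 0.15 to 0.23 TPM at P3, 12.6 and 4.10 TPM at P9 and 0.38, 4.04 and 12.2 TPM at P10 (log2 fold change 4.92, SE 0.92, adjusted p = 0.00034). PPP1R3B, a glycogen-targeting phosphatase subunit, was at 1.72 to 3.25 TPM at P3 and 8.17 to 44.7 TPM at P9 and P10 (3.13, SE 0.75, adjusted p = 0.0028). Both were higher in all 3 differentiations. Their adjusted p was 0.027 and 0.047 without r2, and 0.017 and 0.042 without r3. CD44, the hyaluronan receptor, was at 17.2, 1.55 and 3.08 TPM at P3, 37.7 and 120.4 TPM at P9 and 2.92, 128 and 190.2 TPM at P10 (3.89, SE 1.06, adjusted p = 0.0071), so that it was higher in r2 and r3 and not in P10.r1, and it is named after its values were seen. Its log2 fold change was 6.34 without r1, where it was called, and its adjusted p was 0.26 without r2 and 0.18 without r3. DKK1 was at 2.87 to 7.75 TPM at P8 and returned to 340.4 and 473 TPM at P9. At P10 it was at 2.14, 33.3 and 622 TPM in r1, r2 and r3, so that P10.r1 was below the P8 range. DKK1 had been at 161 to 497 TPM at P3 and was not called (0.06, adjusted p = 0.985). In mean TPM, 18 members were higher by at least 1 on the log2 scale at P9 and P10 than over P4 to P8 and 12 were lower, a comparison that shares P4 to P8 with the rule and is not a test. In the late cultures the summed level of the neural crest list was 406 to 1330 TPM, against 126 to 378 TPM at P3, and 5 of its 13 genes were called higher. That of amnion and trophoblast was 96.0 to 534 TPM, against 7.12 to 16.4 TPM, and 3 of 11 genes tested were called higher. Without r1, 6 of 13 and 3 of 11 were called higher. Of all genes, 4.97% were called higher, and 5.5% without r1. The summed level of the immediate early genes was 160 to 311 TPM at P9 and 68.6 to 133 TPM at P10, against 65.4 to 130 TPM at P3, with 0 of 8 called. The part of these in the late levels was not tested.

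In the fractions, most members were low and few differed by the strict threshold. Of the 122, 99 passed the count filter in the 12 fraction libraries, and those that did not included NODAL, GATA4, GATA6, GSC, NTS and RIPPLY2. SOX2 was at 178 to 254 TPM in P5 EPI and 32.8 to 92.6 TPM in P5 MES, and TFAP2B, a neural crest factor, at 0.74 to 3.42 and 4.33 to 19.6 TPM, with no overlap. At P8 SOX2 was lower and TFAP2B higher in MES within each differentiation, while the ranges overlapped, with SOX2 at 105 to 301 TPM in EPI and 30.3 to 191 TPM in MES and TFAP2B at 2.21 to 103 TPM in EPI and 8.56 to 127 TPM in MES.

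Between MES and EPI cells of P5, 0 of 99 members were called, as were 0% of all 18885 genes tested by edgeR. An unadjusted p under 0.05 was found for 36 of 99 members and for 25.9% of all genes, and DESeq2 called 9 members higher in MES and 3 lower (1.87% and 1.7% of all genes). At an FDR under 5%, edgeR called 8 higher and 3 lower, against 1.37% and 1.3% of all genes. Those named here were chosen after their values were seen. CDK6, a cell cycle kinase, was at 8.74 to 20.7 TPM in EPI and 23.3 to 35.1 TPM in MES (log2 fold change 1.21, SE 0.14, adjusted p = 0.014). OLFML3, MBNL3, DPF3, HAS2, SNAI1 and MEIS1 were also among those higher, with log2 fold changes of 1.31 to 1.83. PDYN (-1.87, SE 0.31, adjusted p = 0.018), FOXB1 (-2.33, SE 0.51, adjusted p = 0.033) and CNTNAP2, a neurexin family adhesion gene (-1.17, SE 0.26, adjusted p = 0.034), were lower in MES. Of the 117 members with a value above 0 in these libraries, 21 had every MES library above every EPI library at P5 (17.9%, against 12.5% of 17381 protein-coding genes with a value) and 8 the reverse (6.84% against 15.7%). At P8 the counts were 5 (4.2% against 5.28%) and 4 (3.36% against 2.75%) of 119. At P8, 0 of 99 members were called by edgeR at 1% or 5% (0% of all genes at both) or by DESeq2 (0.291%), and 16 members had an unadjusted p under 0.05, against 12% of all genes. The interaction of fraction and passage, which asks whether the MES to EPI difference itself changed from P5 to P8, called 0 of 99 members and 0% of all genes by edgeR, with 10 members and 6.1% of all genes at an unadjusted p under 0.05, and DESeq2 also called 0 members (0.0053% of all genes).

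Between P5 and P8, 3 members were called by edgeR. An unadjusted p under 0.05 was found for 41 of 99 members in each fraction, against 31.3% of all genes in EPI and 31.1% in MES, and the median log2 fold change of the members was 0.35 in EPI and 0.38 in MES. In the epithelial fraction RHBDF1, an inactive rhomboid protein, rose from 5.54, 8.85 and 6.47 TPM at P5 to 18.0, 22.5 and 13.2 TPM at P8, with no overlap (log2 fold change 1.33, SE 0.17, adjusted p = 0.0093). It was 1 of 99 members called, against 0.228% of all genes higher, 0.0318% lower and 0.259% in all. In the mesenchymal fraction 2 of 99 members were called, both lower, against 0.116% of all genes lower, 0.582% higher and 0.699% in all. DPF3 went from 8.32, 2.45 and 3.31 TPM at P5 to 0.85, 0.23 and 0.17 TPM at P8 (-3.16, SE 0.38, adjusted p = 0.0061). MEIS1, a cofactor of HOX proteins, went from 19.0, 8.74 and 16.2 TPM to 4.71, 0.98 and 1.20 TPM (-2.83, SE 0.33, adjusted p = 0.0060). Each of the 3 moved the same way in all 3 differentiations, and none was called without the replicate block, without r2 or without r3. Without r1, MEIS1 was called (adjusted p = 0.0060), and RHBDF1 and DPF3 were not (adjusted p = 0.017 and 0.021). At an FDR under 5% the calls were 3 higher and 5 lower of 99 in EPI (1.96% and 0.646% of all genes) and 9 higher and 8 lower in MES (2.54% and 0.694%). APLNR was among those lower in both, at 19.0 to 40.4 TPM in P5 EPI and 1.38 to 4.22 TPM in P8 EPI, and at 86.9 to 199.8 TPM in P5 MES and 2.86 to 40.0 TPM in P8 MES. PRTG, MEIS1 and LDB2 were lower in both fractions at that threshold as well, and CA2, a carbonic anhydrase, and AP3B2 were higher in both. The interaction above is also the test of whether the change with passage differed between EPI and MES.

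**Figure D5:**
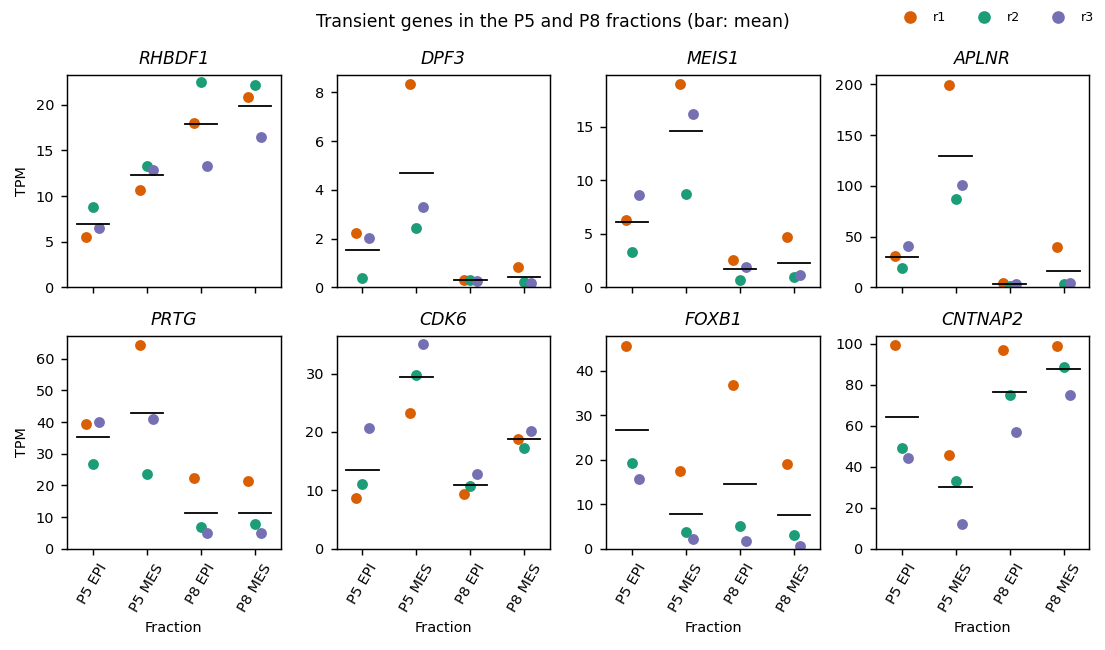
TPM (vertical axis) of 8 of the genes in the EPI and MES fractions of P5 and P8 (horizontal axis), with 1 point per differentiation (color) and a bar at the mean. CDK6 and APLNR are higher in P5 MES than in P5 EPI, FOXB1 and CNTNAP2 are lower, and DPF3, MEIS1 and APLNR are near 0 to 5 TPM at P8 in most libraries.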

How the data were processed

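RNA of 47 libraries was sequenced from poly(A) libraries as single-end reads. Per the submitters' processing notes, cutadapt 1.16, STAR 2.5.2b and RSEM 1.3.0 were used with GRCh38. The authors deposited expected counts, which RSEM estimates by dividing reads that match several genes, and TPM, which RSEM scales by transcript length and library total. Of the 58051 genes listed, 57447 matched GENCODE 29, which gave the gene classes. Library totals ran from 13029491 to 64082859 expected counts with a median of 47292229.

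The genes were ranked on mean TPM per time point with a pseudocount of 1, and levels are TPM. Expected counts (9.33% not whole) were rounded and tested in R 4.3.3 with edgeR 4.0.16 (TMM factors, filterByExpr, quasi-likelihood F-test, Benjamini-Hochberg adjustment over all genes tested). One fit held the 35 whole cultures and another the 12 fractions, with the differentiation as a block. Calls needed an FDR under 1%, a change of 2-fold or more and a mean normalized count of 100 or more. SE is an approximate standard error, the size of the log2 fold change divided by the square root of its F statistic. It was not estimated by the fit, and for genes near 0 in a group it is a poor measure of uncertainty. DESeq2 1.42.0 and limma 3.58.1 were loaded, DESeq2 as an alternative test. The block follows the study's design, in which each experiment was followed over the time points (P9 has 2 of the 3), and deviations of libraries with the same number correlated by 0.0824 to 0.700 between groups. P-values rest on the spread left after group and differentiation were fitted, estimated over all libraries of a fit. All libraries come from 3 differentiations of 1 cell line. On simulated counts, 88% of 200 genes changed by 2 on the log2 scale were recovered for P3 against P2 with 1 false call among 19924 genes, and 91% for P5 MES against P5 EPI with 1 false call among 18033 genes. The simulated libraries held random spread and depth alone, with no shift of a differentiation such as that of r1. The changed genes had a mean normalized count of 100 or more. These shares therefore do not say how many real changes the tests could find.

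The members and the gene lists were chosen with earlier results of these data known. Named by rule were the 20 members with the highest score, every member in a list, and the 10 called members with the largest change in each direction that had the same sign in every differentiation. A few members that the rule names are not reported here. Promoter windows came from RefSeq. Alternatives were the block, the tool, scaling, filters, thresholds, libraries in the fit and each differentiation left out.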

Additional observations from a re-analysis of the deposited data

How the results depend on the processing

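The comparison of P9 and P10 with P3 called 30 members, and 17 when at least 10 counts were asked of every compared library, 0 when only the compared groups were fitted, and 5 to 30 when 1 differentiation was left out. Over all genes these gave 1363, 4 and 423 to 1960. Asking for 10 counts left 67 members to test in place of 120. It takes out genes that were near 0 in a late library, so part of that drop is set by the filter. It called 33 without P10 of r1 (7 higher, 26 lower), 30 without the replicate block (3 and 27) and 42 with DESeq2 (9 and 33), against 3 higher and 27 lower. Over all genes the last settings called 1895, 1261 and 1824, against 1536. For P3 against P2, leaving out 1 differentiation gave 0 to 4 calls (0 to 56 over all genes). For P5 MES against P5 EPI, DESeq2 called 12, an FDR under 5% called 11 and no count filter called 1 (674, 503 and 82 over all genes). For P8 EPI against P5 EPI, in place of 1 call, DESeq2 gave 11, an FDR under 5% gave 8, no count filter gave 3, no replicate block gave 0, the compared groups alone gave 0 and leaving out 1 differentiation gave 0 to 5 (606, 493, 159, 0, 0 and 0 to 378 over all genes). For P8 MES against P5 MES, in place of 2 calls, the same settings gave 18, 17, 5, 0, 0 and 0 to 4 (751, 610, 269, 1, 0 and 0 to 219 over all genes). The cause was not tested, other than that fits of fewer libraries hold fewer samples. With a pseudocount of 0.1 in the rule, 78 of the 122 members were shared. With CTTTGA in place of CTTTGAT, 17.6% of members' windows held the motif, against 10.9% of all windows. For genes named from the tests, 134 alternative values kept their call, 49 lost it and 0 reversed. The 134 include an FDR under 5%, no fold change minimum and no mean minimum. These only loosen the thresholds and could not end a call. The block, which follows the pairing of libraries within a differentiation, ended the calls of RHBDF1, DPF3 and MEIS1 between passages when it was left out. Depth limits genes near 0 TPM, where 1 count moves the value.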
